A study of Sus scrofa with 6 samples.

Results

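The genes described here encode subunits of respiratory complexes III, IV and V, together with cytochrome c, in the ventricular myocardium of Tibetan minipigs. They were chosen by gene symbol: names starting with UQCR, COX4 to COX8 or ATP5, plus CYC1, CYCS and the mitochondrially encoded CYTB, COX1, COX2, COX3, ATP6 and ATP8. This gave 38 of the 13288 genes listed, 32 of them nuclear and 6 encoded on the mitochondrial genome. The study compared male minipigs whose descending aorta had been narrowed with sutures (descending aortic constriction, DAC, n = 3) with minipigs that had a thoracotomy without constriction (sham, n = 3). Constriction of this artery puts the heart under a chronic pressure overload. Each sample was the ventricular tissue of a separate minipig of the same breed, and the animals' age is not given in the sources used here. Expression was measured by RNA sequencing as FPKM, a fragment count scaled by transcript length and by the sample's mapped fragments.

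Complex III passes electrons from ubiquinol to cytochrome c, complex IV passes them from cytochrome c to oxygen, and complex V uses the proton gradient that results to make ATP. The heart depends on this system for nearly all of its ATP, and its muscle cells are packed with mitochondria. Each of these complexes is built from subunits of both genomes: the mitochondrial genome supplies a few membrane subunits at the core, and the nucleus supplies the rest.

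On average over the DAC minipigs, most nuclear genes lay below the sham level and the mitochondrially encoded genes lay above it. This did not hold in each minipig: in DAC replicate 4 the median mitochondrially encoded gene was 0.01 from the sham mean on the log2 scale. The DAC mean was below the sham mean in 28 of the 32 nuclear genes. Over all genes, the log2 fold change was below 0 in 5884 of the 11029 tested. Of the 28, 6 passed the study's threshold, an unadjusted P under 0.05, as downregulated (UQCRC1, COX5A, ATP5F1A, ATP5F1D, ATP5PF and ATP5MC1). That is 18.75% of the 32 nuclear genes, beside 5.27% of the 11029 genes tested. None of the 32 was upregulated at that threshold. The DAC mean was above the sham mean in all 6 mitochondrially encoded genes, and 2 of them, ATP6 and ATP8, were upregulated, beside 3.25% of all genes tested. Over all genes, the log2 fold change was above 0 in 5145 of the 11029 tested. The 6 genes lie on the same genome, and DAC replicate 5 held the highest value in 5 of them, so they are not 6 independent observations. No gene of either set passed 0.05 after adjustment: in limma with Benjamini-Hochberg adjustment over all genes tested, the adjusted P of the 8 called genes lay between 0.505 and 0.586. The median log2 fold change was -0.17 over the nuclear genes and 0.24 over the mitochondrially encoded genes, beside -0.016 over all genes tested. The mitochondrially encoded median was 0.09 without DAC replicate 5. It was 0.01 with quantile normalization. That setting gives every sample the same set of values, which removes much of a rise shared by the genes of highest level. The median standard error of a fold change was 0.13 for the nuclear genes, so most single changes were not much larger than their error. In bulk tissue, fewer cells of a type and less RNA per cell cannot be told apart.

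**Figure D1:**
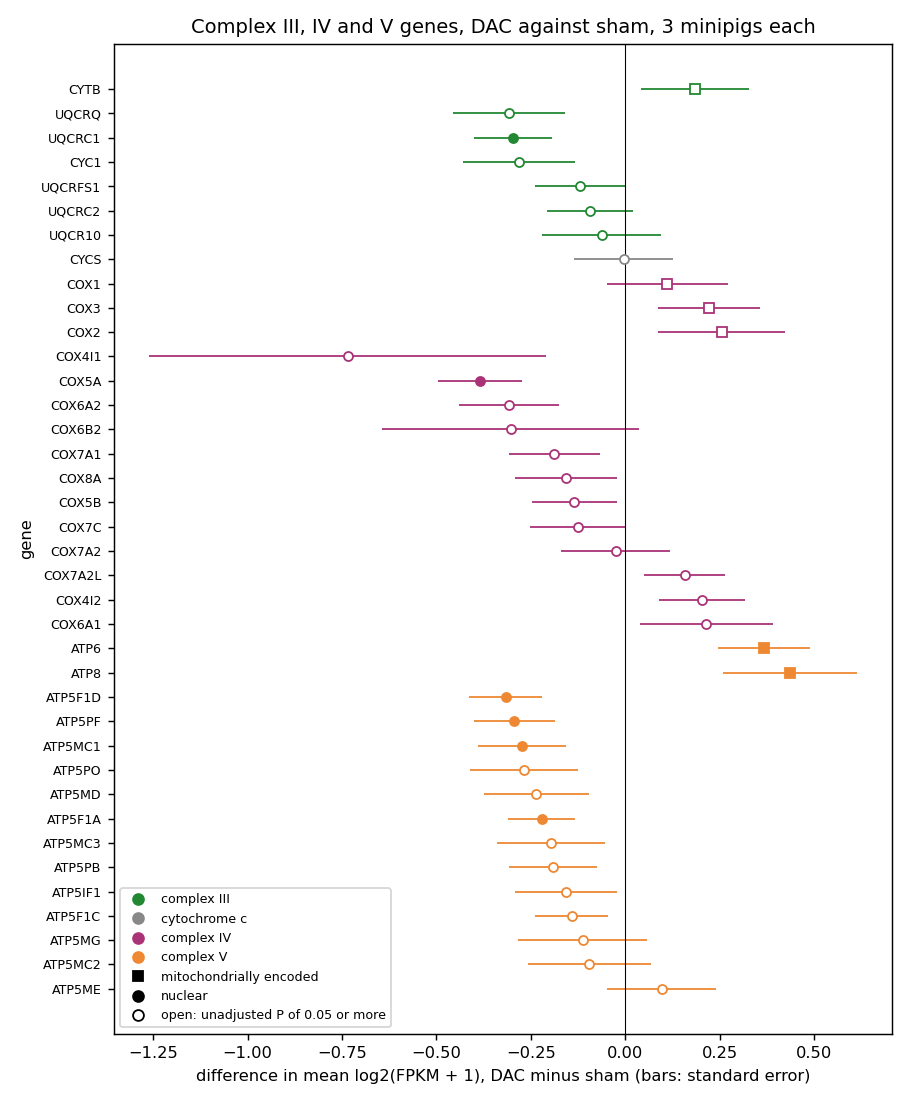
The horizontal axis gives the difference in mean log2(FPKM + 1), DAC minus sham, for each of the 38 genes, with bars of 1 standard error; colours mark the complex, squares the mitochondrially encoded genes and filled symbols an unadjusted P under 0.05. Most nuclear genes lie left of 0 and all 6 mitochondrially encoded genes lie right of it.

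The 6 downregulated genes were all among the 27 nuclear genes with a mean of at least 20 FPKM, where they made up 22.2%, beside 8.34% of the 1918 genes tested at that level. The median log2 fold change of these 27 was -0.19, beside -0.056 over all genes at that level. It was below 0 in 26 of the 27 genes, beside 1188 of the 1918. The other 5 nuclear genes had sham means of 3.30 to 12.3 FPKM, none was called, and their median was 0.16. The count also depended on single minipigs. It was 3 without DAC replicate 4, 3 without sham replicate 1 and 2 without sham replicate 3. In those fits 515, 359 and 387 of all genes tested were downregulated, beside 581 with all samples.

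In complex III, UQCRC1 encodes a core protein on the matrix side of the complex. It had 299, 276 and 317 FPKM in sham replicates 1, 2 and 3, and 228, 249 and 247 FPKM in DAC replicates 4, 5 and 6. All DAC values were below all sham values. The log2 fold change was -0.30 (SE 0.10, limma adjusted P = 0.548), and the call was lost without sham replicate 1 (-0.29), without sham replicate 3 (-0.25) or with quantile normalization (-0.21). UQCRC1 lies on chromosome 13 at 31298449 to 31309516, minus strand, in the coordinates of the deposited table.

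CYC1 encodes cytochrome c1, the heme protein that hands electrons to cytochrome c, and had the highest level of the nuclear complex III genes. Its values were 464, 428 and 448 FPKM in the sham group and 296, 418 and 400 FPKM in the DAC group. The groups did not overlap, but DAC replicate 4 lay far below the other 2 DAC minipigs, and the log2 fold change of -0.28 (SE 0.15, limma adjusted P = 0.636) was not called. It was -0.13 without DAC replicate 4, and -0.37 and called without DAC replicate 5. UQCR10, a small accessory subunit, had 198, 241 and 227 FPKM in the sham group and 171, 234 and 238 FPKM in the DAC minipigs, giving a log2 fold change of -0.06 (SE 0.16) that was 0.09 without DAC replicate 4. The 3 remaining nuclear genes of complex III, which are UQCRQ, UQCRFS1 and UQCRC2, had log2 fold changes of -0.31 to -0.09, and none was called. CYCS, the mobile carrier cytochrome c itself, had 108, 124 and 134 FPKM in the sham group and 111, 138 and 117 FPKM in the DAC group. Its log2 fold change was -0.004 (SE 0.13, limma adjusted P = 0.996), with a sign that changed with the scaling of the samples.

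In complex IV, COX5A was the nuclear gene with the lowest P of all 38. It encodes an accessory subunit on the matrix side of cytochrome c oxidase and lies on chromosome 7 at 58622964 to 58644035, plus strand. Sham minipigs had 339, 356 and 363 FPKM and DAC minipigs 243, 270.4 and 299 FPKM. The groups were separated, and the DAC mean was 76.8% of the sham mean. The log2 fold change was -0.38 (SE 0.11, limma adjusted P = 0.505), and it stayed below the unadjusted threshold in each of the 14 alternative analyses, with values of -0.46 to -0.25.

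Of the other nuclear complex IV genes none was called. COX5B, an accessory subunit that binds zinc, had 259.7, 279.8 and 294 FPKM in the sham group and 227, 262 and 271 FPKM in the DAC minipigs, giving a log2 fold change of -0.13 (SE 0.11). COX8A, a small accessory subunit, had 114, 126 and 109 FPKM against 87.7, 113 and 114 FPKM, with a log2 fold change of -0.16 (SE 0.14). Both were lowest in DAC replicate 4 and overlapped between the groups, and without that minipig the values were -0.06 and -0.03. COX6B2, an isoform best known from testis, was low, with 3.69, 3.02 and 3.20 FPKM against 1.44, 1.73 and 5.31 FPKM. Its log2 fold change was -0.30 (SE 0.34), and DAC replicate 6 stood apart: without it the value was -0.73 and passed the threshold. COX7C and COX7A2L, the latter a factor that joins complexes III and IV into supercomplexes, had log2 fold changes of -0.12 and 0.16.

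COX4I1 encodes the ubiquitous isoform of subunit 4 and had the highest level of all nuclear genes described here. Its values were 768, 893 and 753 FPKM in the sham group and 185, 798 and 755 FPKM in the DAC group. DAC replicate 4 was thus 4.07-fold below the lowest of the other 5 minipigs, whereas DAC replicates 5 and 6 lay within the sham range. The log2 fold change was -0.73 (SE 0.53, limma adjusted P = 0.709), and without DAC replicate 4 it was -0.05 (SE 0.11, limma adjusted P = 0.936). Among the 314 tested genes with a mean of at least 100 FPKM, COX4I1 was the only 1 whose value in that minipig was under 50% of that in every other sample. The annotated span of COX4I1, on chromosome 6 at 3131019 to 3240221, shares 6531 bases with IRF8, a transcription factor of myeloid cells on the same strand. IRF8 had 12.2, 18.9 and 29.2 FPKM in the sham group and 86.9, 17.2 and 16.9 FPKM in the DAC group, so its highest value fell in the minipig with the lowest COX4I1. Whether fragments were shared between these genes was not tested.

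In complex V, 4 of the 13 nuclear genes were downregulated (30.8%, beside 5.27% of all genes tested and 8.34% of those with at least 20 FPKM), against 1 of 6 in complex III and 1 of 12 in complex IV. These counts were not tested against each other. The F1 head and central stalk, where ATP is formed, were represented by 3 genes. In each the DAC values lay below the sham values, beside 8.91% of all genes tested and 13.3% of those with at least 20 FPKM. A set of 3 genes is too few to set against these shares. ATP5F1B, the beta subunit of the head, and ATP5F1E, the epsilon subunit of the central stalk, were not among the genes found by symbol. ATP5F1D, the delta subunit of the central stalk, had 297, 294 and 286 FPKM in the sham group and 224, 253 and 228 FPKM in the DAC minipigs. The log2 fold change was -0.32 (SE 0.10, limma adjusted P = 0.512), and the gene was called in each of the 14 alternative analyses, with values of -0.37 to -0.24. Its span shares 1579 bases with CBARP on the opposite strand, and whether the counting used strand is not given in the sources used here. ATP5F1A, the alpha subunit of the head, had 86.4, 84.1 and 87.8 FPKM in the sham group and 73.5, 72.4 and 75.2 FPKM in the DAC group. The spread within each group was small and the groups were separated, with a log2 fold change of -0.22 (SE 0.09, limma adjusted P = 0.584). The call was lost whichever of the 6 minipigs was left out, where the log2 fold change was -0.24 to -0.21. It was also lost with median scaling (-0.20), scaling to the nuclear sum (-0.18) and quantile normalization (-0.14), so in 9 of 14 alternatives. ATP5F1C, the gamma subunit that turns inside the head and a gene singled out after its values were seen, was separated too, at -0.14 (SE 0.10, limma adjusted P = 0.702), but not called.

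The peripheral stalk holds the F1 head still against the turning ring. ATP5PF, its coupling factor 6, had 49.0, 46.6 and 52.0 FPKM in the sham group and 36.4, 40.4 and 43.3 FPKM in the DAC minipigs. The log2 fold change was -0.29 (SE 0.11, limma adjusted P = 0.557), and the call was lost without DAC replicate 4 (-0.23), DAC replicate 5 (-0.30), sham replicate 1 (-0.30) or sham replicate 3 (-0.25). All 11285 bases of its span lie opposite GABPA. ATP5PO, the oligomycin sensitivity-conferring subunit and the nuclear complex V gene with the highest level, had 441, 453 and 482 FPKM against 311, 421 and 421 FPKM. These values did not overlap, but the log2 fold change of -0.27 (SE 0.14, limma adjusted P = 0.640) was not called and was -0.12 without DAC replicate 4. ATP5PB was not called, at -0.19 (SE 0.12). ATP5PD, another subunit of this stalk, was not among the genes found by symbol.

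The c-ring, the part of the motor that protons turn, is made from identical subunits encoded by 3 genes. ATP5MC1 had 307, 342 and 326 FPKM in the sham group and 237, 285 and 287 FPKM in the DAC minipigs, giving a log2 fold change of -0.27 (SE 0.12, limma adjusted P = 0.586). Its unadjusted P was just inside the threshold, and the call was lost in 12 of 14 alternatives, including those without DAC replicate 4 (-0.18), DAC replicate 6 (-0.32) or any of the sham minipigs (-0.31 to -0.24). ATP5MC2 had 288, 303 and 285 FPKM against 212, 318 and 302 FPKM, and ATP5MC3 had 47.9, 66.7 and 53.4 FPKM against 44.5, 49.7 and 51.0 FPKM. Neither passed the test, with log2 fold changes of -0.09 and -0.20, and the former was 0.09 without DAC replicate 4. ATP5IF1, the inhibitor that blocks the enzyme from running backwards, had 325, 329 and 336 FPKM in the sham group and 251, 347 and 296 FPKM in the DAC group, and its log2 fold change of -0.16 (SE 0.13), which was -0.04 without DAC replicate 4, did not pass the test either. The membrane accessory genes ATP5MD, ATP5MG and ATP5ME had log2 fold changes of -0.24 to 0.10, and none was called.

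**Figure D2:**
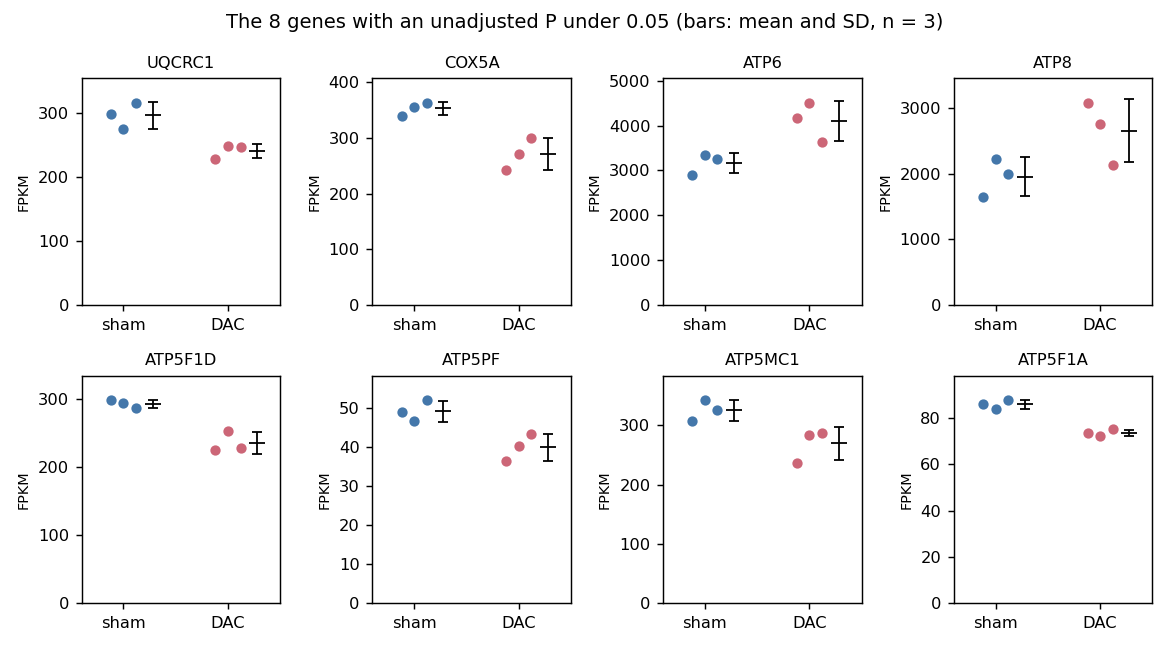
FPKM of the 8 genes with an unadjusted P under 0.05, with 1 point per minipig (replicates 1 to 3 sham, 4 to 6 DAC, from left to right) and the mean with SD. The DAC points lie below all sham points for the 6 nuclear genes and above them for ATP6, whereas the groups overlap for ATP8.

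Over all 38 genes, the DAC values lay wholly below the sham values in 9, all nuclear, beside 8.91% of all genes tested (28.125% of the nuclear genes). All 9 were among the 27 nuclear genes with at least 20 FPKM (33.3%), beside 13.3% of all genes tested at that level. These 9 were the 6 downregulated genes, CYC1, ATP5F1C and ATP5PO. The DAC values lay wholly above the sham values in 3, beside 6.01% of all genes tested, and these were ATP6, COX4I2 and COX7A2L.

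The mitochondrially encoded subunits were far more abundant per length than the nuclear ones, with sham means of 1954 to 18098.5 FPKM beside 3.30 to 804.7 FPKM. In every minipig COX3 was the highest of the 6 and ATP8 the lowest. ATP6 encodes subunit a, which forms the proton path beside the c-ring. It had 2908, 3348 and 3247 FPKM in the sham group and 4163, 4507 and 3624 FPKM in the DAC group. All DAC minipigs were above all sham minipigs, with a log2 fold change of 0.37 (SE 0.12, limma adjusted P = 0.531), and the call was lost without sham replicate 1 (0.31), without sham replicate 3 (0.39) or with quantile normalization (0.09).

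ATP8, a small membrane subunit beside subunit a, had 1639, 2223 and 1999 FPKM in the sham group and 3078 (replicate 4), 2762 and 2125 FPKM in the DAC group. DAC replicate 6 fell within the sham range. The log2 fold change was 0.44 (SE 0.18, limma adjusted P = 0.584), and the call was lost without DAC replicate 4 (0.32), DAC replicate 5 (0.40), sham replicate 1 (0.32) or sham replicate 3 (0.46). It was also lost with quantile normalization (0.21), with sample weights (0.41) and with each gene's own variance (0.44), so in 7 of 14 alternatives. ATP6 and ATP8 overlap by 43 bases and lie on the same strand, so fragments over the shared bases cannot be told apart and the 2 calls are not independent.

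The catalytic subunits COX1 and COX2, the core subunit COX3 and cytochrome b (CYTB) were not called. COX1 had 8325, 7751 and 8872 FPKM in the sham group and 7205, 10648 and 9405 FPKM in the DAC group. COX2 had 5208, 5073 and 5800.0 FPKM against 5280.4, 8087 and 6103 FPKM. For both genes DAC replicate 5 was the highest of the 6 minipigs and DAC replicate 4 lay within or below the sham range. COX3 had 17083, 18279 and 18933 FPKM against 18692, 24909 and 20140.3 FPKM, and CYTB had 7645, 7965 and 7888 FPKM against 7619, 10755 and 8605 FPKM. The same minipig was the highest in these genes. Their log2 fold changes were 0.11 for COX1, 0.26 for COX2, 0.22 for COX3 and 0.18 for CYTB, with errors of 0.14 to 0.17. The direction for COX1 and COX2 turned to -0.18 and -0.08 with quantile normalization, and COX3 and CYTB came to 0 and 0.03 in that setting. Quantile normalization gives all samples the same value at each rank, which removes much of a rise shared by the genes of highest level. ATP6 and ATP8 stayed above 0 in that setting, at 0.09 and 0.21. The cause of the turned signs of COX1 and COX2 was not tested. Without DAC replicate 5 the values were -0.01 for COX1, 0.09 for COX2, 0.10 for COX3 and 0.05 for CYTB. Without DAC replicate 4 these 4 genes and ATP6 passed the test, so that 5 of the 6 were upregulated, while with all samples 2 were. The count was 1 without DAC replicate 5, and 0 without sham replicate 1 or without sham replicate 3. In these fits, in that order from DAC replicate 4, 314, 470, 241 and 244 of all genes tested were upregulated, beside 358 with all samples.

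**Figure D3:**
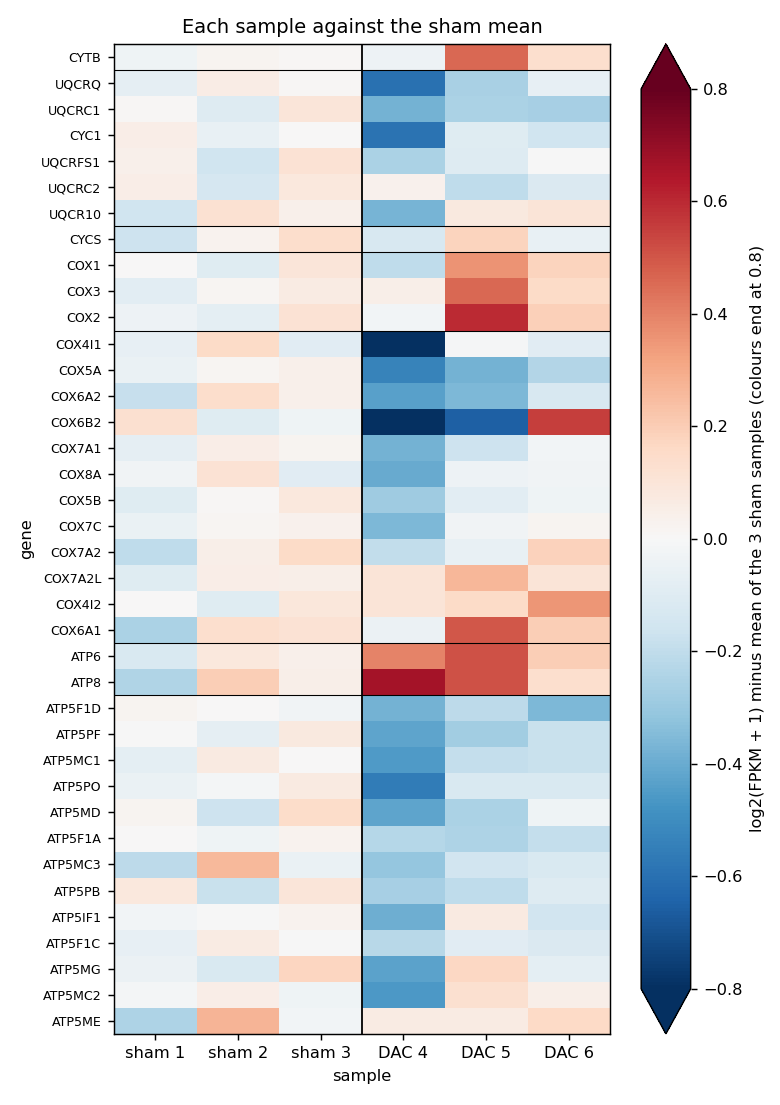
Colours give log2(FPKM + 1) in each minipig (columns) minus the mean of the 3 sham minipigs, for each of the 38 genes (rows), ordered by complex and genome of origin. The DAC replicate 4 column is the lowest for most nuclear genes, and the DAC replicate 5 column is the highest for 5 of the 6 mitochondrially encoded genes.

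The DAC minipigs were unlike each other in both sets. DAC replicate 4 held the lowest value of the 6 samples in 24 of the 32 nuclear genes (75%), beside 21.1% of all genes tested and 32.2% of the genes with at least 20 FPKM. This was so in 5 of 6 nuclear genes of complex III, 8 of 12 of complex IV and 11 of 13 of complex V. The median nuclear gene was -0.38 on the log2 scale from the sham mean in DAC replicate 4, -0.10 in replicate 5 and -0.07 in replicate 6. The median mitochondrially encoded gene was 0.01 from the sham mean in DAC replicate 4, 0.49 in replicate 5 and 0.17 in replicate 6. By these medians, the minipig with the lowest nuclear values was not the one with the highest mitochondrial values. Of the 6 mitochondrially encoded genes, 5 were highest in DAC replicate 5, but ATP8 was highest in replicate 4 (3078 FPKM). The mitochondrially encoded sum of complex V was 7242 FPKM in replicate 4 and 7269 FPKM in replicate 5.

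The sums and ratios of FPKM below cover only the genes found by symbol, not whole complexes. Not among them were ATP5F1B, ATP5F1E, ATP5PD, ATP5MF, UQCRB, UQCRH, COX6B1, COX6C and NDUFA4, and UQCR11 and COX7B were not counted. Summed over genes, the nuclear subunits came to 5972, 6306 and 6277 FPKM in the sham group and 4286, 5742 and 5765 FPKM in the DAC group. The groups did not overlap, and the DAC mean was 85.1% of the sham mean. Without COX4I1 the DAC mean was 87.1% of the sham mean and the groups still did not overlap. By complex, the nuclear sum was 86.2% of sham for complex III and 87.4% for complex V, both without overlap, and 80.8% for complex IV, with overlap. The complex IV value was 86.1% without COX4I1, which was low in DAC replicate 4. The mitochondrially encoded sum was 42808, 44639 and 46739 FPKM in the sham group and 46038, 61668 and 50003 FPKM in the DAC group, with overlap, at 118% of sham. As a share of all FPKM, the nuclear genes took 2.12%, 2.19% and 2.17% in the sham group and 1.52%, 1.86% and 1.98% in the DAC group. FPKM is a relative measure, so a larger mitochondrial share lowers all other values. Among the FPKM of genes outside the mitochondrial genome alone, the nuclear subunits took 2.79%, 2.93% and 2.91% in the sham group and 2.09%, 2.77% and 2.71% in the DAC group, again without overlap.

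The ratio of the mitochondrially encoded sum to the nuclear sum does not depend on the scaling of a sample. It was 7.17, 7.08 and 7.45 in the sham group and 10.7, 10.7 and 8.67 in the DAC group. For CYTB over the nuclear sum of complex III it was 5.49, 5.83 and 5.46 against 7.27, 8.43 and 6.62. For complex IV it was 15.3, 13.8 and 16.0 against 26.3, 22.5 and 17.8, and for complex V 1.84, 2.17 and 2.02 against 3.73, 3.05 and 2.45. In each of the complexes all DAC minipigs were above all sham minipigs, and the DAC mean of the pooled ratio was 139% of the sham mean. On the log2 scale the difference was 0.47 with all samples and 0.42 without DAC replicate 4. These ratios are given as a description, with no test.

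**Figure D4:**
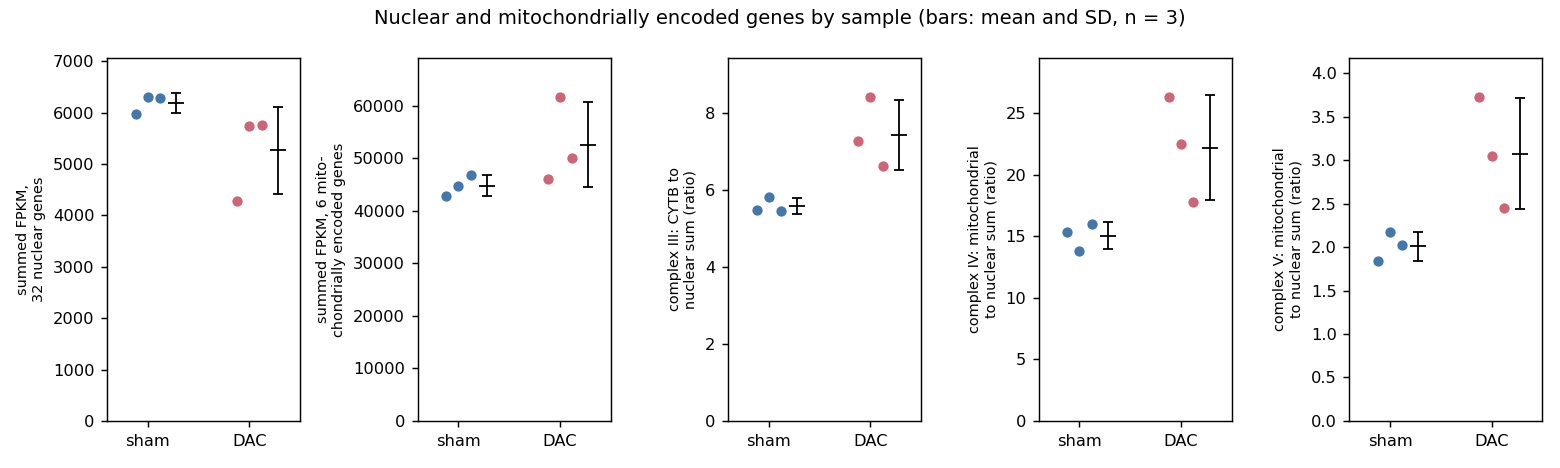
From left to right, the summed FPKM of the 32 nuclear genes, that of the 6 mitochondrially encoded genes, and the ratio of mitochondrial to nuclear FPKM in complexes III, IV and V, with 1 point per minipig and the mean with SD. The nuclear sum is lower and the 3 ratios are higher in every DAC minipig than in any sham minipig, whereas the mitochondrial sums overlap.

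Some positions in complexes IV and V can be filled by isoforms, and the ratio within a pair tells which form prevails at the RNA level. Both genes of 5 pairs were listed. COX6A2, the form typical of heart and skeletal muscle, had 186, 233 and 216 FPKM in the sham group and 156, 164 and 193 FPKM in the DAC group. Its log2 fold change of -0.31 (SE 0.13, limma adjusted P = 0.592) was not called, and passed the threshold without DAC replicate 6 (-0.40) or sham replicate 1 (-0.40). COX6A1, the form of other tissues, had 5.99, 8.15 and 7.99 FPKM against 7.05, 10.7 and 8.53 FPKM, with a log2 fold change of 0.22 (SE 0.18). The log2 ratio of COX6A2 to COX6A1 was 4.74, 4.68 and 4.60 in the sham group and 4.29, 3.81 and 4.34 in the DAC group. The ratio was lower in every DAC minipig, by -0.52 in log2 units (SE 0.17). The exact two-sided permutation P was 0.10, the smallest that 3 against 3 samples can give, and 0.33 after adjustment over the 5 pairs. COX6A2 nevertheless made up 93.9% to 96.9% of the pair in all minipigs. The span of COX6A1 shares 12697 bases with GATC on the same strand.

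The other 4 pairs overlapped between the groups. COX7A1, the muscle form of subunit 7A, had 143, 156 and 153 FPKM in the sham group and 116, 134 and 149 FPKM in the DAC group, and COX7A2, the form of other tissues, had 71.8, 85.5 and 91.8 FPKM against 71.9, 79.2 and 93.9 FPKM. The log2 fold changes were -0.19 (SE 0.12) and -0.02 (SE 0.14), the latter turning to 0.05 with quantile normalization and 0.02 with scaling to the nuclear sum. Their log2 ratio differed by -0.16 (SE 0.08, exact permutation P = 0.20). COX4I2, a form of subunit 4 known from lung and from low oxygen, had 8.60, 7.97 and 9.21 FPKM in the sham group and 9.31, 9.63 and 11.2 FPKM in the DAC group. The groups were separated, but the log2 fold change of 0.20 (SE 0.11, limma adjusted P = 0.645) was not called. Its log2 ratio to COX4I1 differed by 0.94 (SE 0.66, exact permutation P = 0.20), a value that rests on the low COX4I1 of DAC replicate 4. In the c-ring, ATP5MC1 made up 48.3% of the FPKM in the sham group and 45.5% in the DAC group, ATP5MC2 43.4% and 46.3%, and ATP5MC3 8.28% and 8.20%. The log2 ratios of ATP5MC1 and ATP5MC2 to ATP5MC3 differed by -0.08 and 0.10, with exact permutation P of 0.50 and 0.60. The span of ATP5MC3 shares 7573 bases with ATF2 and that of ATP5MC2 shares 3157 bases with ATF7, each on the same strand. Whether fragments were shared between these genes was not tested.

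**Figure D5:**
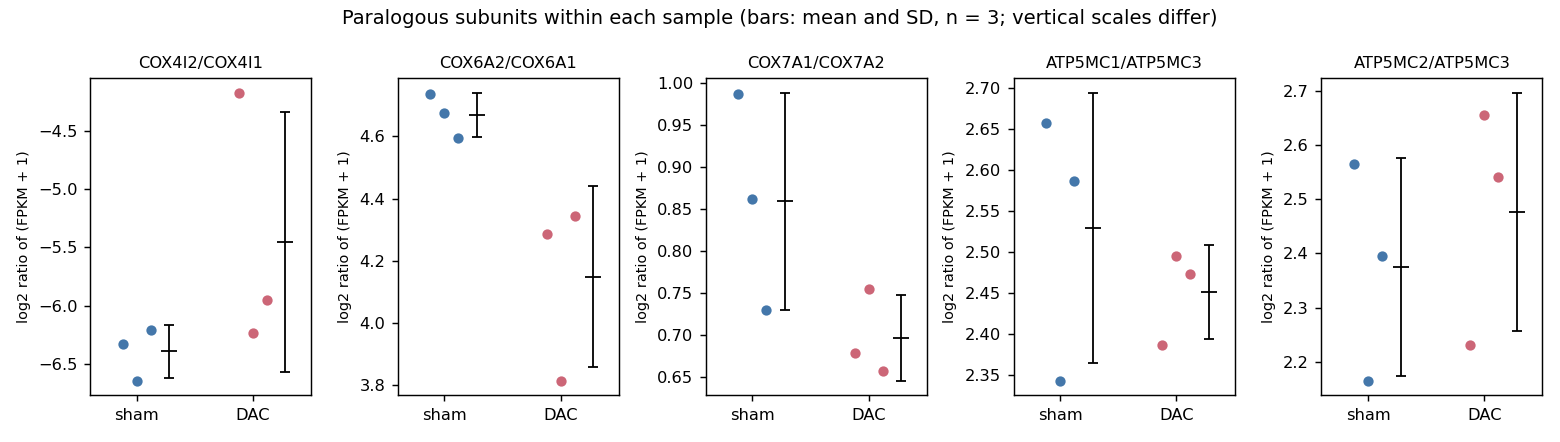
The vertical axes give the log2 ratio of (FPKM + 1) between the genes of each of 5 pairs, on scales that differ, with 1 point per minipig and the mean with SD. The COX6A2 to COX6A1 ratio is lower in every DAC minipig than in any sham minipig, and the COX4I2 to COX4I1 ratio is farthest from the others in DAC replicate 4.

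The factors that assemble these complexes are also nuclear. Of the 25 tested genes for assembly of complex IV and its supply of copper and heme, 3 were downregulated (12%, beside 5.27% of all genes tested) and none was upregulated, with a median log2 fold change of -0.13. These were SURF1, an assembly factor, at -0.45 (SE 0.13), OXA1L, which inserts membrane subunits, at -0.28 (SE 0.10), and COX19, which takes part in copper delivery, at -0.33 (SE 0.13). SURF1 had 26.9, 29.8 and 21.9 FPKM in the sham group and 17.9, 18.8 and 19.4 FPKM in the DAC group, so that the groups were separated. The 25 genes include NDUFA4, which encodes a subunit of complex IV rather than an assembly factor and was not called. They also include LRPPRC, SLIRP and FASTKD3, which are counted again among the genes for mitochondrial RNA below. Of 6 tested assembly genes of complex III, only TTC19, which acts late in the assembly, was downregulated, at -0.27 (SE 0.11), and 1 gene of 6 is too few to set against that share. None of the 7 tested assembly genes of complex V was called: the smallest P was that of DMAC2L, at -0.20 (SE 0.10). In limma with Benjamini-Hochberg adjustment, none of these assembly genes had an adjusted P below 0.505.

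Genes that act on the mitochondrial genome and its RNA passed the test in 2 cases of 31, 1 lower and 1 higher, a count near the 5.27% and 3.25% of all genes tested. TWNK, the helicase of mitochondrial DNA replication, was downregulated at -0.85 (SE 0.26) from a level of only 2.81 to 6.55 FPKM in the sham group. REXO2, which degrades short RNA fragments, was upregulated at 0.32 (SE 0.12). The median over these genes was -0.08. Of 14 tested nuclear factors known for transcription of respiratory chain genes, PPARGC1A, a coactivator of mitochondrial biogenesis, was upregulated at 0.54 (SE 0.22), and the median was -0.006. PPARGC1A had 24.4, 25.6 and 20.1 FPKM in the sham group and 34.0, 25.3 and 46.7 FPKM in the DAC group, so that DAC replicate 5 fell within the sham range.

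The 7 mitochondrially encoded genes of complex I, which are transcribed from the same genome, were all higher on average in the DAC minipigs, and their median log2 fold change was 0.28. Only ND4 was called, at 0.36 (SE 0.15). ND4 had 8184, 10150.2 and 8777 FPKM in the sham group and 12483, 12674 and 9797 FPKM in the DAC group, so DAC replicate 6 again fell within the sham range. The DAC values lay wholly above the sham values in 2 of the 7, ND4L and ND5, beside 6.01% of all genes tested. Neither was called, at 0.43 (SE 0.20) and 0.21 (SE 0.12).

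Markers of other cells were measured beside these values, since the tissue is a mixture. Of 11 fibroblast markers, 6 were upregulated, beside 3.25% of all genes tested. The summed level of the 11 was 636 to 722 FPKM in the sham group and 893 to 992 FPKM in the DAC group. Of 9 cardiomyocyte markers, RYR2 was downregulated and none was upregulated, beside 5.27% and 3.25% of all genes tested. The sum of the 9 was 14837 to 15546 FPKM in the sham group and 14014 to 16972 FPKM in the DAC group. The tissue label thus fits its defining cardiomyocyte genes, although MYH6, PLN and TTN were not analysed here. Of 10 endothelial markers 2 were downregulated and 1 was upregulated, of 8 smooth muscle and pericyte markers 1 was upregulated, and of 7 leukocyte markers 1 was downregulated. Such counts in short lists are too few to set against the 5.27% and 3.25% of all genes tested. The sums of these lists overlapped between the groups, as did those of the red blood cell and adipocyte lists, of which only 1 and 2 genes were tested. The part of the fibroblast markers in the values of the respiratory genes was not tested.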

How the data were processed

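RNA was extracted with TRIzol from ventricular tissue of 3 sham and 3 DAC minipigs, and libraries made with a NEBNext Ultra kit were read from both ends on an Illumina HiSeq platform. The authors deposited FPKM values per gene, 1 column per minipig, each gene reaching at least 0.5 FPKM in its highest sample. The submitters' processing notes name HISAT2 and the build susScr11; the quantifier, its annotation and its handling of strand and shared reads are not given in the sources used here. The depth is unknown, since no steps of whole reads were seen (at most 3 of 2903 low genes shared a ratio), so precision rests on the spread between minipigs. Replicate numbers are those of the sample titles, and no batch is given.

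Genes reaching 1 FPKM in 3 or more samples were compared on log2(FPKM + 1) with limma 3.58.1 (R 4.3.3, variance trend). Fold changes on this scale understate those of low genes. Calls used the study's threshold, an unadjusted P under 0.05, and adjusted values are Benjamini-Hochberg over the 11029 tested genes. Isoform ratios used exact two-sided permutation tests (scipy 1.17.1). Of the 2440 genes listed without a name, UQCR11 and COX7B were matched by identifier and not counted; their log2 fold changes were -0.15 and -0.30, and neither was called. In all, 24 of the 38 symbols were found in RefSeq, all 24 at an overlapping position, and 14 of the 38 genes overlap another listed gene. Named were all called and all mitochondrially encoded genes, the 3 nuclear genes of highest level in each complex, isoforms, CYC1, CYCS and the called genes of other lists, or that with the smallest P. The genes, lists and rules were chosen with earlier results of these data known. No sequences were printed and no promoter motifs were searched.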

Additional observations from a re-analysis of the deposited data

How the results depend on the processing

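Of the 28 named genes, the recalculated fold changes turned sign 17 times, lost a call 38 times and gained a call 8 times. The count of downregulated genes was 3 with quantile normalization and 2 to 7 with 1 minipig left out, against 6. The count of upregulated genes, against 2, was 0 with quantile normalization, 1 with sample weights and 1 with each gene's own variance. It was 0 to 5 with 1 minipig left out. Leaving out overlapping genes, a setting chosen after seeing the data, gave 0. This outcome was fixed, since ATP6 and ATP8 overlap each other and were both left out. Scaling to the nuclear sum gave 4 and 2, and 404 and 501 over all genes, against 581 and 358. The median of the mitochondrially encoded genes was 0.0143 with quantile normalization and 0.0935 to 0.315 with 1 minipig left out, against 0.24. Quantile normalization gives every sample the same set of values, so it removes much of a rise shared by the genes of highest level. The cause of the other shifts was not tested. Medians of the nuclear genes of each complex stayed below 0 in all alternatives, but that of complex IV was -0.0406 without DAC replicate 4 and -0.0488 with quantile normalization, against -0.146. Signs turned with quantile normalization for COX1 (-0.184), COX2 (-0.0840), COX7A2 (0.0452), CYCS (0.0914) and UQCR10 (0.0151), with nuclear-sum scaling for COX7A2 (0.0192) and CYCS (0.0403), and with median scaling for CYCS (0.0210). With 1 minipig left out the log2 fold change ranged from -0.205 to 0.0860 for ATP5MC2, -0.0125 to 0.269 for COX1, -0.128 to 0.0614 for COX7A2, -0.0955 to 0.0667 for CYCS and -0.146 to 0.0919 for UQCR10, and the ATP5MC2 to ATP5MC3 ratio from -0.00352 to 0.224. No paired analysis was possible because the groups share no replicate number. Unknown depth and 3 minipigs per group limit all values.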

Other observations

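Genes next to each other on the mitochondrial genome did not keep 1 ratio across the DAC minipigs. The ratio of ATP6 to COX3 was 0.170, 0.183 and 0.171 in the sham group and 0.223, 0.181 and 0.180 in DAC replicates 4, 5 and 6, so that replicate 4 alone lay above the sham range. The ratio of ATP8 to COX3 was 0.0959, 0.122 and 0.106 in the sham group and 0.165, 0.111 and 0.106 in the DAC group. ND6, the complex I gene on the other strand of that genome, had its highest value in the same minipig, with 1567, 2607 and 2016 FPKM in the sham group and 3462, 3035 and 2208 FPKM in the DAC group. ND1 had its lowest value there, with 3228, 3348 and 3530.2 FPKM against 2918, 5781 and 4019 FPKM. These genes were chosen after their values were seen, and the cause was not tested.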
